A study of Mus musculus with 8 samples.

Results

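The measurements concern 10 mouse genes of the immunoglobulin superfamily that turn T cell activation up or down: *Ctla4*, *Cd28*, *Icos*, *Pdcd1*, *Lag3*, *Tigit*, *Cd96*, *Cd226*, *Btla* and *Cd274*. They were chosen by gene name, and all 10 were found among the 11911 genes of the deposited count table and among the 11317 genes with enough counts to be tested. Naive CD4+ T cells from the spleens of C57BL/6J-background mice were cultured for 36 h with TGF-β and antibodies to CD3 and CD28, and with IFNγ and IL-4 blocked by antibody, which turns part of them into induced regulatory T cells (iTregs). RNA from 8 such cultures was depleted of ribosomal RNA and sequenced, 4 from Foxp3YFP-Cre mice (labelled WT, the controls) and 4 from Tdrd3fl/fl/Foxp3YFP-Cre mice (labelled KO), and the comparison asks what loss of the Tudor domain protein TDRD3 did to each gene. Both groups carry Cre driven by *Foxp3*, which directs deletion of the floxed *Tdrd3* to cells that transcribe *Foxp3*. The methods name no sort of YFP+ cells before RNA was taken. The labels give neither age nor sex of the mice.

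A T cell needs a signal through its antigen receptor and a second one through costimulatory receptors such as CD28 and ICOS. Coinhibitory receptors such as CTLA-4, PD-1, LAG-3, TIGIT and BTLA damp the response, in part by taking the same ligands away: CTLA-4 outcompetes CD28 for CD80 and CD86, and TIGIT and CD96 compete with CD226 for the poliovirus receptor PVR. Regulatory T cells are known for high CTLA-4, which they need to suppress other cells, and the anti-CD28 in these cultures engages CD28 directly.

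In these cultures *Lag3* was the receptor gene that stood apart by genotype. Its RNA was 1.30-fold higher in whole Tdrd3fl/fl/Foxp3YFP-Cre than in whole Foxp3YFP-Cre cultures, with no overlap between the 4 libraries of each. *Cd28* was 0.933-fold the control level, with overlapping libraries. For the other 8 genes the log2 fold change lay between -0.076 and 0.16, and none had an unadjusted P below 0.05. *Ctla4* was by far the most abundant of the 10 per length of transcript, and *Tigit* was close to the lower limit of the counts.

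Of the 10 genes, 0 had an adjusted p below 0.05 in edgeR (quasi-likelihood test, Benjamini-Hochberg adjusted), against 0.265% of all tested genes. At an unadjusted P below 0.05, 1 was lower (*Cd28*), where 4.91% of all tested genes were, and 1 was higher (*Lag3*), where 4.38% were. Every Tdrd3fl/fl/Foxp3YFP-Cre library lay above every control library in 1 of the 10, against 2.25% of all tested genes, and below in 0, against 2.63%. The median log2 fold change of the 10 was -0.00622, and that of all tested genes was 0.00132. DESeq2, which was also run, called 1 of the 10 at an adjusted p below 0.05, *Lag3*, and 0.716% of all tested genes.

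The summed counts of the listed genes ranged from 13258239 to 16001676 per library and did not separate the genotypes (two-sided exact permutation test, p = 0.743), and 3 counts corresponded to 0.188 to 0.225 CPM. CPM here means the count as a share of the library total, scaled by TMM normalization. *Tdrd3* itself fell only partly in RNA from whole cultures, by 0.35 on the log2 scale (unadjusted P = 0.0370, edgeR adjusted p = 0.496). The library labelled WT replicate 3 had less *Tdrd3* RNA (9.95 CPM) than any library labelled KO (10.7 to 13.7). The counts do not show the floxed exons separately. Markers of CD4+ T cells (*Cd3d*, *Cd3e*, *Cd3g*, *Cd4*, *Cd5* and *Lat*) summed to 1513 to 1572 CPM in controls and 1509 to 1542 in Tdrd3fl/fl/Foxp3YFP-Cre cultures, and all 6 were tested. The 7 regulatory T cell markers summed to 3459 to 3654 CPM in controls and 3169 to 3359 in Tdrd3fl/fl/Foxp3YFP-Cre cultures. Most of the sum was *Il2ra* (means 2269 and 2076 CPM), which is also a marker of activated T cells. Of the 7, 5 (*Foxp3*, *Il2ra*, *Ikzf2*, *Ikzf4* and *Lrrc32*) were lower at an unadjusted P below 0.05, where 4.91% of all tested genes were. *Tnfrsf18* and *Tnfrsf4* were not (unadjusted P = 0.258 and 0.519 in edgeR). *Foxp3*, the gene that defines regulatory T cells, was lower by 0.31 on the log2 scale (edgeR unadjusted P = 0.00212, adjusted p = 0.152). In bulk RNA, fewer cells of a type and less RNA per cell cannot be told apart.

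Per kilobase of exon, *Ctla4* had 242 ± 8.46 RPKM (SD, n = 4) in controls and 253 ± 12.3 in Tdrd3fl/fl/Foxp3YFP-Cre cultures. Over all 8 libraries it ranked 184 of 11317 tested genes by CPM. The next genes, *Icos* at 37.8 ± 2.49 and *Cd96* at 36.7 ± 2.93 RPKM in controls, overlapped each other across libraries. Below them came *Cd28* (27.5 ± 1.25), *Pdcd1* (26.4 ± 4.57) and *Btla* (22.6 ± 0.604), where *Pdcd1* spanned 21.7 to 31.4 and so overlapped both neighbours. *Cd274* (13.0 ± 1.49), *Cd226* (12.9 ± 1.10) and *Lag3* (11.6 ± 0.613) overlapped in controls. In Tdrd3fl/fl/Foxp3YFP-Cre cultures the mean of *Lag3*, 15.0 ± 1.66 RPKM, stood above those of *Cd226* (12.8 ± 1.93) and *Cd274* (12.3 ± 1.16). The libraries of *Lag3* overlapped those of both. *Tigit*, at 0.970 ± 0.287 RPKM in controls, was below every other member in every library.

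**Figure D1:**
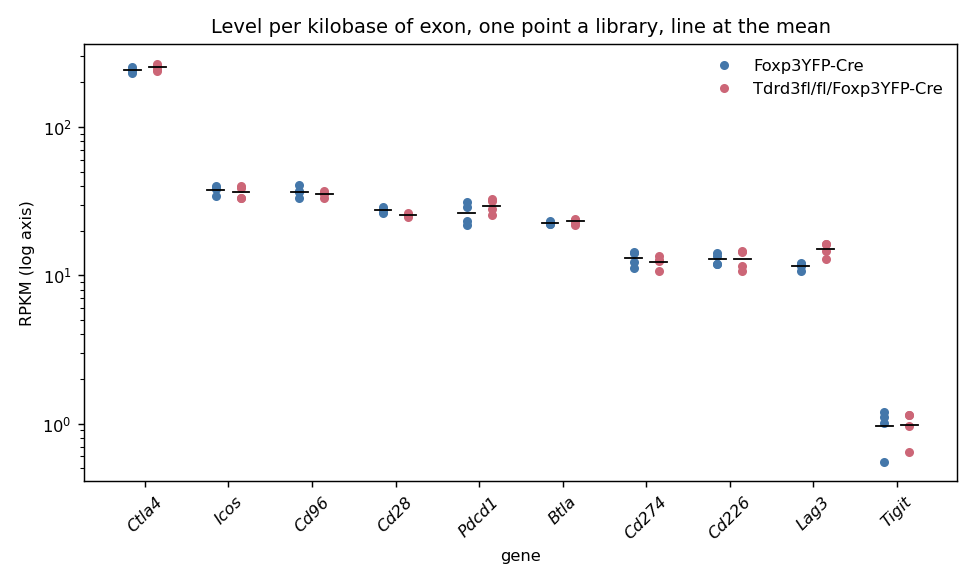
RPKM of the 10 genes on a log axis, with 1 point for each library and a line at the mean of each genotype (n = 4). *Ctla4* lies near 242 to 253 RPKM, 8 genes have control means from 11.6 to 37.8, and *Tigit* lies near 0.970.

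*Cd28*, *Ctla4* and *Icos* sit side by side on the plus strand of chromosome 1 (GRCm39): *Cd28* at 60755959 to 60812518, *Ctla4* at 60926159 to 60954991 and *Icos* at 61017086 to 61039479. The gaps are 113.64 kb and 62.094 kb, with 0 other listed genes in them. *Pdcd1* is on the same chromosome at 93966027 to 93980278 on the minus strand. *Tigit* (43469230 to 43484509, minus strand), *Btla* (45044678 to 45078033, plus strand) and *Cd96* (45856020 to 45940614, minus strand) lie within 2471.4 kb of chromosome 16. *Lag3* is on chromosome 6 at 124881324 to 124888668 on the minus strand, and *Cd274* on chromosome 19 at 29344855 to 29365495 on the plus strand. In the chromosome 1 group the log2 fold changes were -0.10, 0.062 and -0.059 (*Cd28*, *Ctla4*, *Icos*), and in the chromosome 16 group 0.0019, 0.031 and -0.055 (*Tigit*, *Btla*, *Cd96*). The 95% intervals of all of these but *Cd28* cross 0, so no shared or opposed direction can be read from them.

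RefSeq promoter sequence (table build GRCm38.p6) was at hand for 6 of the 10 genes, *Ctla4*, *Pdcd1*, *Tigit*, *Cd96*, *Cd274* and *Btla*. The 250 bases before the RefSeq start are shown for *Ctla4*, the most abundant gene, and for *Pdcd1*, which had the widest relative spread between control libraries of the 9 genes other than *Tigit*. They were searched on both strands for the core letters bound by NFAT (GGAAA), by KLF family factors (CACCC) and by FOXO factors (GTAAACA), families that act on T cell genes, and capitals mark the matches. Each sequence occurs once on chromosome 1 of GRCm39, at chr1:60947934-60948183 on the plus strand for *Ctla4*, inside the longer GENCODE gene, and at chr1:93980279-93980528 on the minus strand for *Pdcd1*.
Ctla4: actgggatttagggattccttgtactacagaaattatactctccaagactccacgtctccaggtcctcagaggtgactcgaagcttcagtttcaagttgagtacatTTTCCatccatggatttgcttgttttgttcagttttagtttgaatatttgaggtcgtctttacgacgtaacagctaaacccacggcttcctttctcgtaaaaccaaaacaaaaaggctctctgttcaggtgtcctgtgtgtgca
Pdcd1: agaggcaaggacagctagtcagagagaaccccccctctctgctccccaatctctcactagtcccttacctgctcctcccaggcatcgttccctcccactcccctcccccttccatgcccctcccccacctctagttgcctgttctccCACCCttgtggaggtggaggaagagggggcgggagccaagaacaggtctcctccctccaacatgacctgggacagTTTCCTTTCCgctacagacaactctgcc

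The *Ctla4* window held 1 NFAT core, 0 KLF cores and 0 FOXO cores. The *Pdcd1* window held 2 NFAT cores next to each other and 1 KLF core. Of the other promoters, *Cd96* had 4 NFAT cores, *Tigit* 2 with 1 KLF core, *Cd274* 1 with 1 KLF core, and *Btla* none of the 3. Of 32851 promoters of the same length, 55.6% held the NFAT letters, 52% the KLF letters and 3.17% the FOXO letters, so matches to the first 2 are common. The matches are descriptions of the letters only.

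*Cd28* encodes the main costimulatory receptor of naive T cells. It had 162, 163, 178 and 170 CPM in Foxp3YFP-Cre replicates 1 to 4 and 157, 162, 157 and 151 in Tdrd3fl/fl/Foxp3YFP-Cre replicates 1 to 4. Of the 4 knockout libraries, 3 lay below every control, and replicate 2 came between control replicates 1 and 2. Its log2 fold change was -0.10 (SE 0.0441, 95% interval -0.19 to -0.0077), with P = 0.0353 unadjusted and 0.494 adjusted in edgeR, and p = 0.0571 in the two-sided exact permutation test. The unadjusted P was between 0.0574 and 0.123 when control replicate 3 or 4 or knockout replicate 1, 3 or 4 was left out, and below 0.05 without any one of the other 3 libraries. It was 0.0555 with limma's voom, 0.0550 with the replicate number as a block and 0.203 without knockout replicates 1 and 4.

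*Icos* encodes the inducible costimulator, which rises after activation. It had 131, 133, 137 and 117 CPM in controls and 138, 114, 114 and 132 in Tdrd3fl/fl/Foxp3YFP-Cre cultures. Knockout replicate 1 lay just over the control range and replicate 4 within it, and replicates 2 and 3 lay below all controls. The genotypes differed by -0.059 on the log2 scale (95% interval -0.19 to 0.074, edgeR adjusted p = 0.864). Without knockout replicates 1 and 4, the highest knockout libraries for this gene, the difference was -0.19 with an unadjusted P of 0.0105 in edgeR. Leaving out the highest libraries of 1 genotype lowers its mean, so this value is no test of a difference.

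*Cd226* encodes DNAM-1, the costimulatory receptor for PVR (chromosome 18, plus strand, 89195091 to 89290353). It had 70.6, 59.7, 59.9 and 67.5 CPM in controls and 72.2, 57.9, 53.4 and 71.6 in Tdrd3fl/fl/Foxp3YFP-Cre cultures. Knockout replicates 1 and 4 were above every control and replicates 2 and 3 below. The log2 fold change was -0.014 (95% interval -0.20 to 0.17, edgeR adjusted p = 0.974). Without knockout replicates 1 and 4 it was -0.21 with an unadjusted P of 0.0217 in edgeR. These were the highest knockout libraries, so leaving them out sets the direction and this value is no test of a difference. Its exons share 79 bases with *Dok6* on the opposite strand, and the sources used here do not state whether counting used strand.

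**Figure D2:**
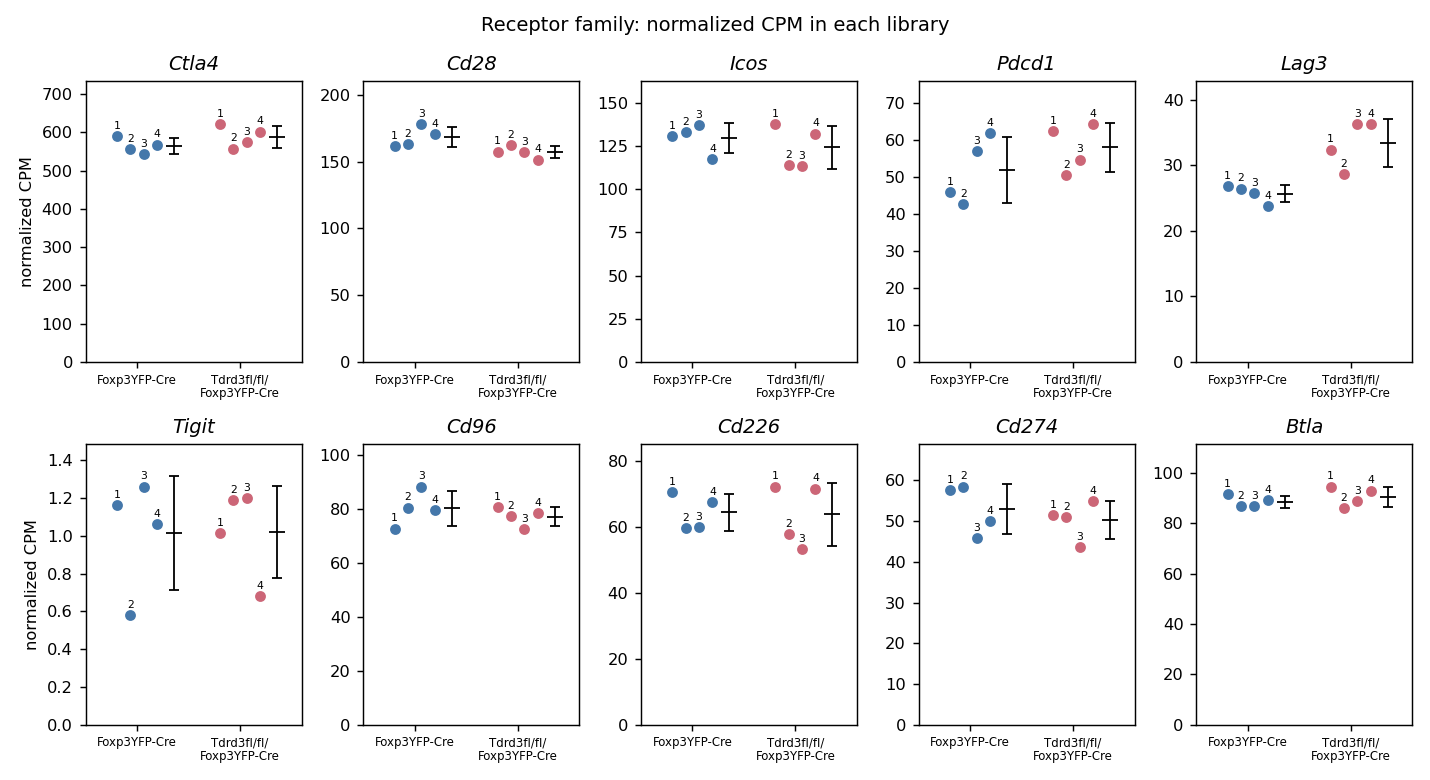
Normalized CPM of each gene in the 4 Foxp3YFP-Cre libraries (blue) and the 4 Tdrd3fl/fl/Foxp3YFP-Cre libraries (red), numbered by replicate, with the mean and SD in black beside them; each panel starts at 0 and has its own scale. *Lag3* is the gene whose groups do not overlap, at 23.7 to 26.8 CPM against 28.6 to 36.3.

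Among the coinhibitory receptors, *Ctla4* had 590, 557, 543 and 568 CPM in controls and 622, 558, 574 and 602 in Tdrd3fl/fl/Foxp3YFP-Cre cultures. The highest 2 libraries were knockout replicates 1 and 4, and knockout replicates 2 and 3 lay within the control range. Between genotypes the log2 fold change was 0.062 (SE 0.0412, 95% interval -0.025 to 0.15, edgeR adjusted p = 0.736; two-sided exact permutation test, p = 0.171). With 7642 to 8895 counts per library it was the most precisely measured of the 10, and its 95% interval ran from 0.983-fold to 1.11-fold.

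*Pdcd1* encodes PD-1, which is induced by antigen receptor signals. It had 46.0, 42.8, 57.0 and 61.8 CPM in controls and 62.5, 50.5, 54.7 and 64.4 in Tdrd3fl/fl/Foxp3YFP-Cre cultures. The controls themselves split, with replicates 1 and 2 below every knockout library and replicates 3 and 4 within the knockout range. Its log2 fold change of 0.16 (SE 0.0991, 95% interval -0.048 to 0.37) did not pass the edgeR test (unadjusted P = 0.124, adjusted p = 0.701), and the exact permutation test gave p = 0.314. In edgeR it moved to 0.25 (unadjusted P = 0.0152) without control replicate 4 and to 0.22 (unadjusted P = 0.0385) without knockout replicate 2. It moved to 0.078 without control replicate 2 and to 0.017 without knockout replicates 1 and 4. Those 2 were the highest knockout libraries, so the value of 0.017 is no test of a difference. With voom the log2 fold change was 0.24 (unadjusted P = 0.0191) and with the replicate block 0.17 (unadjusted P = 0.0377). Over the 16 alternatives the lowest adjusted p of *Pdcd1* was 0.296.

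*Lag3* encodes a receptor related to CD4 that binds MHC class II. It had 26.8, 26.4, 25.8 and 23.7 CPM in Foxp3YFP-Cre replicates 1 to 4 and 32.4, 28.6, 36.3 and 36.3 in Tdrd3fl/fl/Foxp3YFP-Cre replicates 1 to 4, from 335 to 534 counts per library. Every knockout library was above every control; the controls spanned a narrow range, and knockout replicate 2 came closest to them. The means were 25.7 ± 1.36 and 33.4 ± 3.69 (SD, n = 4 each), which is 0.38 on the log2 scale (SE 0.0835, 95% interval 0.20 to 0.55), or 1.15-fold to 1.47-fold. In edgeR the unadjusted P was 0.00024, rank 40 of 11317 genes, and the adjusted p was 0.0671. The two-sided exact permutation test gave p = 0.0286, the smallest that 4 against 4 libraries allow.

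The call for *Lag3* changed with the test and its size did not. Its adjusted p was 0.0166 with DESeq2 and 0.0478 with limma's voom, and leaving out knockout replicate 2 took the edgeR adjusted p to 0.00567 with a log2 fold change of 0.44. Over all 16 alternatives the log2 fold change stayed between 0.33 and 0.44 with an unadjusted P of at most 0.00534, while the adjusted p ranged from 0.00567 to 1.00, the highest without knockout replicates 1 and 4. CD8 T cell markers (*Cd8a* and *Cd8b1*), which mark another T cell type that makes LAG-3, summed to 7.72 to 21.8 CPM in controls and 6.68 to 8.35 in knockout libraries, although CD4+ cells had been harvested. Both were lower in knockout libraries in edgeR (unadjusted P = 0.00504 for *Cd8a* and 0.0391 for *Cd8b1*). The two-sided exact permutation test gave p = 0.2 for *Cd8a* and 0.0571 for *Cd8b1*, and both overlapped between genotypes. The upper end of the control range came from control replicate 3, with 11.3 CPM of *Cd8a*. The other controls had 0.873 to 1.37 and the knockout libraries 0.436 to 1.15. Without that library the log2 fold change of *Lag3* was 0.38 (edgeR adjusted p = 0.115), and the part of CD8 T cells in the difference was not tested. NK cell markers summed to at most 2.46 CPM in any library, with *Ncr1*, *Klrb1c* and *Gzma* not among the listed genes.

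*Btla*, whose product binds HVEM, had 91.7, 86.9, 86.7 and 89.2 CPM in controls and 94.6, 85.9, 88.8 and 93.0 in Tdrd3fl/fl/Foxp3YFP-Cre cultures. Knockout replicates 1 and 4 were above every control, replicate 2 was below every control and replicate 3 was within their range. Its log2 fold change was 0.031 (95% interval -0.072 to 0.13, edgeR adjusted p = 0.914).

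*Cd96* encodes a further receptor for PVR. It had 72.6, 80.4, 88.2 and 79.4 CPM in controls and 80.5, 77.2, 72.4 and 78.2 in Tdrd3fl/fl/Foxp3YFP-Cre cultures. The highest library and the second lowest were both controls. The log2 fold change was -0.055 (95% interval -0.18 to 0.069, edgeR adjusted p = 0.864). *Tigit*, the inhibitory receptor of the same ligand, rested on 8 to 19 counts per library. It had 1.16, 0.582, 1.26 and 1.06 CPM in controls and 1.02, 1.19, 1.20 and 0.679 in knockout libraries, which overlapped. The 95% interval of its log2 fold change, -0.76 to 0.76 around 0.0019, was the widest of the 10 and corresponds to 0.591-fold to 1.70-fold.

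*Cd274* encodes PD-L1, the ligand of PD-1, and is the one ligand among the 10. It had 57.7, 58.5, 45.9 and 50.0 CPM in controls and 51.5, 51.0, 43.7 and 54.9 in Tdrd3fl/fl/Foxp3YFP-Cre cultures. The highest 2 libraries were controls and the lowest was knockout replicate 3, with overlap in between. PD-L1 RNA differed by -0.076 on the log2 scale (95% interval -0.25 to 0.094, edgeR adjusted p = 0.864). Its exons share 219 bases with *Plgrkt* and 581 with *Gm36043* on the opposite strand. All 8 of its estimated counts were fractional, and whether reads were divided with those genes was not tested.

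**Figure D3:**
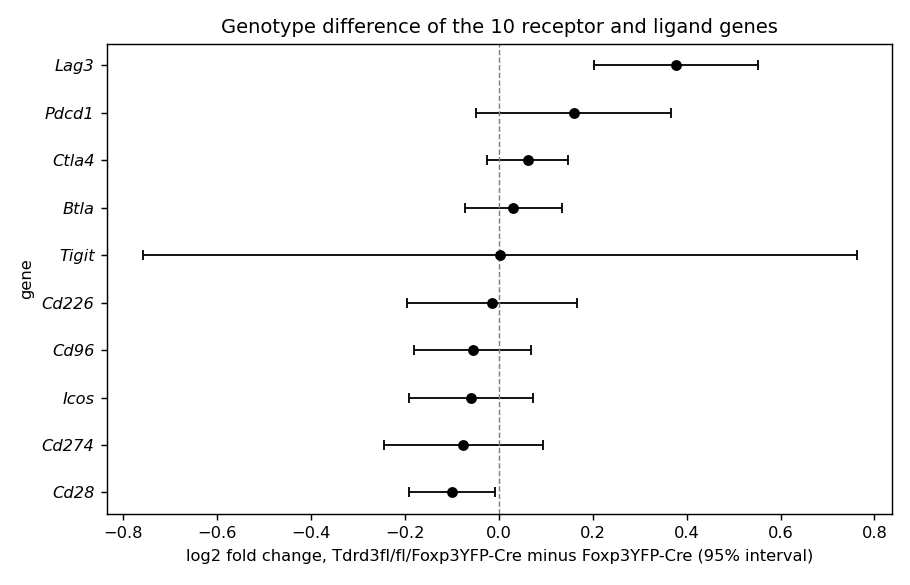
Log2 fold change of each gene, Tdrd3fl/fl/Foxp3YFP-Cre minus Foxp3YFP-Cre, with its 95% interval from edgeR (n = 4 per genotype) and a dashed line at 0. The interval of *Lag3* (0.20 to 0.55) lies above 0, that of *Cd28* (-0.19 to -0.0077) ends just below it, and the other 8 cross it.

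Ratios within a library need no scaling between libraries. The ratio of *Ctla4* to *Cd28* counts compares the inhibitory and the activating receptor for CD80 and CD86. It was 3.65, 3.42, 3.05 and 3.33 in controls and 3.95, 3.44, 3.66 and 3.97 in Tdrd3fl/fl/Foxp3YFP-Cre cultures. Knockout replicates 1, 3 and 4 were above every control and replicate 2 was within the control range; the mean log2 ratio was 0.16 higher. *Icos* to *Cd28* ranged from 0.689 to 0.819 in controls and from 0.702 to 0.876 in knockout libraries. *Cd96* to *Cd226* ranged from 1.03 to 1.47 and from 1.09 to 1.36, and *Tigit* to *Cd226* from 0.00976 to 0.0211 and from 0.00948 to 0.0225, all with overlap. *Pdcd1* to its ligand *Cd274* was 0.797, 0.731, 1.24 and 1.24 in controls and 1.21, 0.990, 1.25 and 1.17 in knockout libraries, so the lowest 2 values were both controls.

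The other genes around these receptors were read from lists of known partners. Of 16 ligands and counter-receptors, 12 were tested; 4 were lower at an unadjusted P below 0.05 (*Cd86*, *Lgals3*, *Cd80* and *Icosl*), where 4.91% of all tested genes were, 0 were higher, and 1, *Cd86*, was lower at an edgeR adjusted p below 0.05. Their median log2 fold change was -0.197, and in 3 of the 12 the knockout libraries were all below the controls, as in 2.63% of all tested genes. *Cd86*, a ligand of CD28 and CTLA-4, had 13.4, 10.7, 11.6 and 12.0 CPM in controls and 6.24, 8.71, 7.36 and 8.29 in Tdrd3fl/fl/Foxp3YFP-Cre cultures. The groups did not overlap, with a log2 fold change of -0.64 (SE 0.132) and an edgeR adjusted p of 0.0466. That adjusted p rose above 0.05, to between 0.0738 and 0.236, when control replicate 1, 2 or 3 or knockout replicate 1, 3 or 4 was left out, and to 0.871 without knockout replicates 1 and 4.

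*Cd80*, the other ligand of CD28 and CTLA-4, had 62.0, 49.7, 61.1 and 63.5 CPM in controls and 45.3, 59.9, 46.1 and 51.0 in knockout cultures. Its groups overlapped, with knockout replicates 2 and 4 within the control range and control replicate 2 within the knockout range. Its log2 fold change was -0.22 (unadjusted P = 0.0198, edgeR adjusted p = 0.415). *Lgals3*, which encodes the lectin galectin-3, had 14.7, 16.8, 21.4 and 13.6 CPM in controls and 7.77, 12.2, 11.5 and 8.83 in knockout cultures, without overlap (log2 fold change -0.72, edgeR adjusted p = 0.0523). *Icosl*, the ligand of ICOS, was near the floor, at 1.13 to 2.04 CPM in controls and 0.543 to 1.13 in knockout cultures (log2 fold change -0.83, unadjusted P = 0.0315, edgeR adjusted p = 0.478). Knockout replicate 2 (1.128 CPM, 18 counts) lay just under control replicate 4 (1.133 CPM, 16 counts), so the *Icosl* groups separate only after scaling. Antigen-presenting cells are a main source of CD80 and CD86. Of the 6 dendritic cell markers 3 were listed, with *Itgax*, *Flt3* and *H2-Aa* absent from the list. The sum was 69.8 to 77.3 CPM in controls and 72.9 to 78.1 in knockout cultures, most of it *Cd74*. Of these, *Zbtb46* was lower (log2 fold change -0.35, unadjusted P = 0.0417) and *H2-Ab1* higher (0.37, unadjusted P = 0.0453). B cell markers (3 of 6 listed) summed to 1.92 to 3.71 CPM in controls and 1.09 to 2.93 in knockout cultures. Myeloid markers (2 of 7 listed, 0 with enough counts to be tested) summed to 0.479 to 1.16 and 0.439 to 2.11. Of these, *Lyz2* had 9 and 18 rounded counts in knockout replicates 1 and 4 and 0 in every other library. The part of such cells in the ligand differences was not tested.

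**Figure D4:**
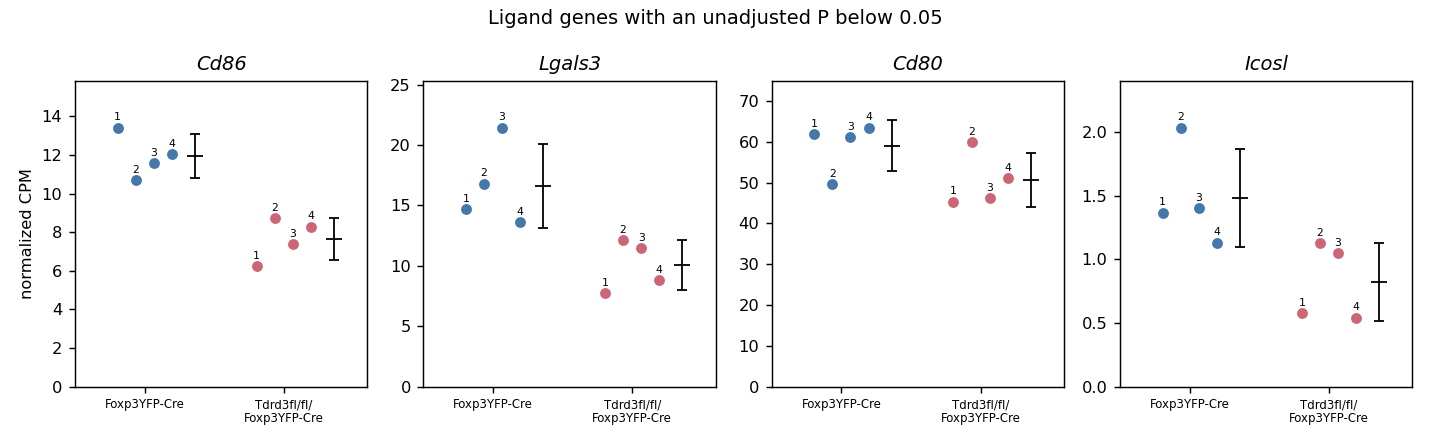
Normalized CPM of the 4 ligand genes with an unadjusted P below 0.05, with 1 point for each library numbered by replicate and the mean and SD in black. *Cd86*, *Lgals3* and *Icosl* are lower in all 4 Tdrd3fl/fl/Foxp3YFP-Cre libraries than in any control, and *Cd80* overlaps. For *Icosl* the highest knockout library (1.128 CPM) and the lowest control (1.133 CPM) nearly meet.

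Of 20 other immunoglobulin-family receptors of T cells 12 were tested, with a median log2 fold change of -0.0515, and 2 were higher at an unadjusted P below 0.05 (4.38% of all tested genes). *Cd200*, which encodes an inhibitory ligand, had 52.7, 54.3, 50.7 and 56.7 CPM in controls and 79.4, 50.5, 53.4 and 75.4 in knockout libraries. Only knockout replicates 1 and 4 were above the controls (log2 fold change 0.27, edgeR adjusted p = 0.442). *Slamf1*, a receptor that binds itself on neighbouring cells, had a log2 fold change of 0.25 (unadjusted P = 0.0340, edgeR adjusted p = 0.487).

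All 20 signalling partners were tested, and their median was -0.0244. At an unadjusted P below 0.05, 1 of the 20 was lower, near the 4.91% of all tested genes that were, and 0 were higher. The 1 was *Grap2*, which encodes the adaptor GADS that binds the tail of CD28. *Grap2* had 290, 280, 281 and 248 CPM in controls and 231, 254, 248 and 232 in knockout libraries (log2 fold change -0.19, unadjusted P = 0.00120, edgeR adjusted p = 0.126). Knockout replicate 2 alone reached into the control range. Of the 16 genes of receptor trafficking and stability, 1 was lower and 1 higher at an unadjusted P below 0.05. Of all tested genes, 4.91% and 4.38% were. Knockout libraries lay all below the controls in 1 of the 16 and all above in 1, against 2.63% and 2.25% of all tested genes. *Rc3h2*, which encodes the RNA-binding protein Roquin-2 known to act on *Icos* RNA, was lower without overlap, at 52.8 to 61.8 CPM in controls and 49.0 to 51.9 in knockout libraries (log2 fold change -0.21, edgeR adjusted p = 0.188). *Lrba*, whose product keeps CTLA-4 from lysosomal breakdown, was higher without overlap, at 93.0 to 100.1 and 102.6 to 105.3 CPM (log2 fold change 0.10, edgeR adjusted p = 0.496). The median of the 16 was -0.0315.

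Of 20 tested transcription factors that act on these receptor genes, 3 were lower (*Rel*, *Foxp3* and *Myb*) and 2 higher (*Maf* and *Irf4*) at an unadjusted P below 0.05, beside 4.91% lower and 4.38% higher of all tested genes, 0 passed the adjusted threshold in edgeR, and the median was 0.0269. *Maf*, a factor known to drive IL-10, had 11.6, 11.6, 14.3 and 21.2 CPM in controls and 28.5, 17.0, 20.1 and 32.7 in knockout libraries (log2 fold change 0.74, edgeR adjusted p = 0.109). Control replicate 4 overlapped the knockout range, and knockout replicates 1 and 4 were the highest. *Rel*, the NF-κB subunit c-Rel, had a log2 fold change of -0.22 (edgeR adjusted p = 0.0834) and *Myb* of -0.44 (edgeR adjusted p = 0.188).

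**Figure D5:**
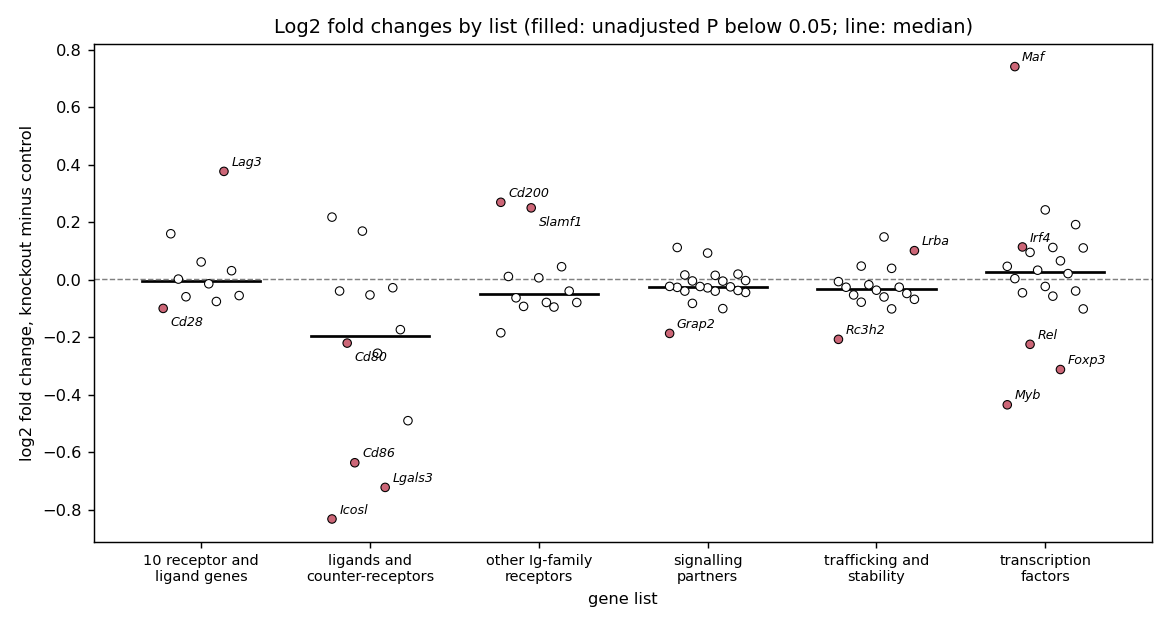
Log2 fold change, knockout minus control, of every tested gene of the 10 receptor and ligand genes and of 5 partner lists, with 1 point for each gene, a black line at the median of each list and a dashed line at the median of all tested genes. Filled points have an unadjusted P below 0.05, and the ligand list has the lowest median, -0.197.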

How the data were processed

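Total RNA from 8 cultures (RNeasy, KAPA RNA HyperPrep with RiboErase) had been sequenced, aligned by the authors with STAR 2.7.8a to GRCm39 (mm39) and quantified in Partek Flow with its E/M algorithm. The deposited values are estimated counts per gene from the authors, filtered but not normalized. Strand setting and annotation version are not given in the sources used here. Of the values, 36.6% were not whole numbers (tolerance 0.001). The methods state independent mice for each replicate, but fewer replicates than the 4 libraries per genotype in the labels. All 4 were used, and the labels do not tie libraries to mice, so p-values measure the spread between these libraries. No pair of libraries within a genotype differed by counting error alone (chi-square per degree of freedom 2.59 to 6.18). The closest pairs were control replicates 1 and 2 (2.69) and knockout replicates 1 and 4 (2.59), and the other pairs had 3.73 to 6.18. Whether the libraries of a close pair share a mouse was not tested. There were 0 columns of other samples.

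Counts were rounded, filtered with filterByExpr (minimum count 10, leaving out 594 genes), TMM-normalized (factors 0.993 to 1.00) and tested for genotype with edgeR 4.0.16 (quasi-likelihood F-test, two-sided, Benjamini-Hochberg over 11317 genes, R 4.3.3). Scripts were tested on simulated data. Single genes were also compared by an exact permutation test of log2(CPM + 0.5) over 70 arrangements. RPKM divides CPM by GENCODE M39 union exon length. Gene ends are as in GENCODE. Alternatives were DESeq2 1.42.0, limma 3.58.1 (voom), other filters and scalings, a replicate block, leaving out each library, and leaving out knockout replicates 1 and 4 together. These lay above knockout replicates 2 and 3 in 7 of the 10 genes. The chi-square and counting floors cover counting error only.

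Every member was named, as were *Tdrd3*, *Foxp3*, and in each partner list genes with an adjusted p below 0.05 and otherwise at most the 4 of smallest unadjusted P below 0.05; *Irf4* and single cell markers were named after their values were seen. The members and lists were chosen with earlier results of these data known.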

Additional observations from a re-analysis of the deposited data

Results flagged for a closer look

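In a fixed set of the named genes, 60 gene-by-genotype groups of 4 libraries were searched for a library far from the other 3. The rule was Dixon's gap over range above its 95% critical value, which chance passes in about 1 of 20 groups, and 1 was found. *Cd8a*, a marker of CD8 T cells, had 11.3 CPM in the library labelled WT replicate 3, with a gap of 0.952 of the range to the nearest control. None of the groups of the 10 receptor and ligand genes held such a library. The set left out, among others, the CD4+ T cell markers and the regulatory T cell markers other than *Foxp3*. Of these, *Cd3e* had 160 CPM in knockout replicate 3 and 138 to 142 in the other knockout libraries.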

How the results depend on the processing

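Each result was recomputed under 16 alternatives. The number of all genes with an adjusted p below 0.05 was 30 in edgeR, 81 with DESeq2, 95 with voom, 87 with the replicate block and 3 without knockout replicates 1 and 4, and it ranged from 6 to 162 when 1 library was left out. At an unadjusted P below 0.05 it was 1052, 450 without knockout replicates 1 and 4, and 697 to 1230 with 1 library left out. Of the 10 genes, 1 (*Lag3*) was called with DESeq2, voom or the block and 0 to 1 with 1 library left out; at an unadjusted P the count of 2 ranged from 1 to 3. The genes behind that count changed: *Lag3* and *Pdcd1*, without *Cd28*, with voom and with the block, and *Lag3*, *Icos* and *Cd226* without knockout replicates 1 and 4. For *Icos* and *Cd226* those were the highest knockout libraries, so their P values there are no test of a difference. The log2 fold change of *Lag3* was 0.38 with DESeq2, 0.36 with voom, 0.37 with the block and 0.33 to 0.44 with 1 library left out.

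Values near 0 changed sign: *Btla* to -0.022 without knockout replicates 1 and 4, *Cd226* between -0.079 and 0.060 with 1 library left out, and *Tigit* between -0.19 and 0.16. For *Btla* the libraries left out were the highest knockout libraries, so its knockout mean had to fall. The cause of the other changes was not tested.

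With 1 library left out, the ligand list had 0 to 2 genes with an adjusted p below 0.05 and 2 to 5 at an unadjusted P, with a median from -0.236 to -0.134. It had 2 at the adjusted threshold when every library had to hold 10 counts, with DESeq2, voom or the block, and 0 without knockout replicates 1 and 4, when 2 remained at an unadjusted P. The other immunoglobulin-family receptors had 1 (DESeq2), 4 (voom) or 0 (without knockout replicates 1 and 4) at an unadjusted P, and 0 to 4 and medians from -0.0994 to -0.0401 with 1 library left out. The signalling list had 1 at the adjusted threshold with DESeq2 or voom (0 to 1 with 1 left out), 2 at an unadjusted P with voom or the block (1 to 3), and a median of -0.00698 without knockout replicates 1 and 4 (-0.0289 to -0.00984). The trafficking list had 1 at an unadjusted P with the block (1 to 3), with medians from -0.0526 to -0.0284. The transcription factors had 1 (DESeq2), 4 (voom) and 4 (block) at the adjusted threshold (0 to 4), and 1 without knockout replicates 1 and 4 at an unadjusted P (4 to 6).

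The replicate numbers did not pair the libraries: deviations of same-numbered libraries correlated at -0.0458, 0.00404, -0.0417 and 0.0691, and 1 of 8 libraries correlated best with its own number. With the replicate block *Lag3* had an adjusted p of 0.0494 and a log2 fold change of 0.37. Limits of depth were met by *Tigit* and *Icosl*, which had 8 to 28 counts per library.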

Other observations

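The 4 Tdrd3fl/fl/Foxp3YFP-Cre libraries were not alike in these receptors. In 7 of the 10 genes (*Ctla4*, *Icos*, *Pdcd1*, *Cd96*, *Cd226*, *Btla* and *Cd274*) replicates 1 and 4 were both above replicates 2 and 3, an order found in 19.9% of all tested genes, and in *Tigit* both were below, as in 19.8%. The 7 genes span costimulatory and coinhibitory receptors and the ligand PD-L1. Knockout replicates 1 and 4 were also the closest knockout pair over the listed genes (chi-square per degree of freedom 2.59, against 3.73 to 4.79). The likeness is thus not particular to these receptors. Genes in the same libraries are not independent of each other, so the count is a description. *Lag3* and *Cd28* did not show this order.

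By the root-mean-square difference of standardized log2 CPM over the 8 libraries, the gene most like both *Ctla4* (0.262 SD) and *Btla* (0.127 SD) was *Ms4a4c*, and *Ctla4* and *Btla* differed from each other by 0.267 SD. For the other members the most alike genes were *Nucb1* for *Cd28* (0.279 SD), *Ints11* for *Icos* (0.292 SD), *Cep290* for *Pdcd1* (0.227 SD), *Mapk8* for *Lag3* (0.226 SD), *Tmem208* for *Tigit* (0.215 SD), *Selenof* for *Cd96* (0.201 SD), *Sos1* for *Cd226* (0.350 SD) and *Parpbp* for *Cd274* (0.350 SD). Each was the closest of all tested genes over 8 points, which many genes approach.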
